A study of Mus musculus with 8 samples.

Results

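Control-treated J1 embryonic stem cells were compared with control-treated F1 embryonic stem cells, a comparison between the control sides of a study on Rif1, a chromatin protein that acts at telomeres and in replication timing. The arrays were chosen by their titles, 2 for J1 and 2 for F1, which is 4 of the 8 arrays of the study; the 4 Rif1 shRNA arrays were not used. RNA was hybridised to Affymetrix Mouse Genome 430 2.0 arrays, on which a gene is read by 1 or more probe sets. Both lines were grown on feeder plates and RNA was extracted with Trizol. The J1 cells (background strain 129S4/SvJae) had received control shRNA with lipofectamine 2000 and were collected 48 hours later. The F1 cells (background strain C57BL/6xC3H) had received control shRNA according to their transfection label, whereas their cell line label names the stable F1 Rif1 knockdown cells at passage 16, a wording shared with the knockdown arrays. The treatment protocol of all arrays speaks of virus or siRNA, so how the F1 shRNA was delivered, and whether either line is a clone, is not settled by the labels. Line, strain, passage and RNA quality, and delivery as far as it is labelled, therefore differ together between the groups and cannot be told apart. Nothing in the labels ties the replicate arrays to separate cultures. The p-values therefore reflect the spread between these arrays alone, which may be technical, and precision is limited by how few arrays there are.

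Mouse embryonic stem cells are taken from the inner cell mass of the blastocyst and are held in a naive state by LIF, which acts through its receptor and STAT3, while FGF and ERK signals push them toward the primed epiblast. Their core factors Oct4 (gene Pou5f1), Nanog and Sox2 are shared between lines, but lines are known to differ in imprinted gene expression, in DNA methylation, in sex chromosome content and in gains of whole chromosomes. Feeder layers are growth-arrested fibroblasts, so RNA from such cultures can hold fibroblast transcripts.

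The deposited signals were on different scales in the lines: their median ran from 61.0 to 66.9 over the 4 arrays, but their 90th percentile was 569 and 580 in J1 and 997 and 1004 in F1. The values below are therefore signals after quantile normalization of log2(signal + 18), turned back to the linear scale with the 18 taken off, in arbitrary units; levels of different genes are not comparable on this scale. Differences are F1 minus J1 on the log2(signal + 18) scale, which understates the change of dim genes, and were tested with limma's moderated test with Benjamini-Hochberg adjustment over 29820 probe sets. These had passed the filter on low values, a signal past the 40th percentile in at least 2 of the 4 arrays. "Higher" and "lower" are written of differences with an adjusted p under 0.05. RNA quality differed with the line: the actin 3′ to 5′ ratio, which rises with degraded or short RNA, was 2.71 and 2.61 in J1 and 1.35 and 1.41 in F1, and that of Gapdh 1.42 and 1.39 against 0.958 and 0.994. The control probe set for the 5′ end of 18S ribosomal RNA read 9415 and 12329 against 3333 and 4188 in deposited signal, and that for the B1 repeat 3819 and 3508 against 8153 and 7993. The part of RNA quality in the differences below was not tested.

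The lines differed at most probe sets. Of the probe sets tested, 20720 (69.5%) differed, 10236 (34.3%) higher in F1 and 10484 (35.2%) lower. At least 2-fold differences numbered 2728 (9.15%) higher and 2348 (7.87%) lower. The split depends on the scale: on the values as deposited 16233 were higher and 5949 lower. Replicates correlated at 0.994 in J1 and 0.997 in F1, and arrays of different lines at 0.879 to 0.902. With each gene taken at its brightest tested probe set, 14147 genes were compared; 3996 (28.2%) were higher and 5630 (39.8%) lower, with 679 (4.8%) and 1096 (7.75%) past 2-fold. The median log2 difference over genes was -0.10, and the middle 90% of genes lay between -1.22 and 0.98. On the values as deposited that median was 0.33, so gene groups are given below by their median relative to that of all genes, and by their counts with those on the deposited scale in brackets. These gene shares are the background against which each group's counts on the normalized scale are read. The bracketed counts have another background, as on the deposited scale 16233 probe sets were higher and 5949 lower.

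Both lines carried the embryonic stem cell pattern that the labels state. The 10 defining markers of stem cells lay between the 89.3 and 99.9 percentiles of their arrays, and their summed normalized signal was 52290 and 52006 in J1 and 50384 and 52210 in F1, ranges that overlap, whereas in deposited signal F1 was above. Single markers were not level: after normalization 5 of the 10 were above in F1, 3 were below and 2 overlapped. The defining genes Lum of fibroblasts, Afp of visceral endoderm, Elf5, Gata3 and Tpbpa of trophoblast, and Ptprc and Lyz2 of blood cells were too dim to be tested. This sum and those below add probe sets of unequal brightness, so their brightest members weigh most. The sum over 9 feeder fibroblast markers was 2498 and 2087 in J1 against 2168 and 2095 in F1, which overlap; in deposited signal it was 1978 and 1657 against 2701 and 2636. Acta2 and Tagln made up most of it, and the other 7 markers summed to 572 and 519 in J1 against 799 and 868 in F1, with 4 of them above in F1 and 3 below on both arrays. Sums over 7 primitive endoderm markers (558 and 592 against 478 and 446), 6 trophoblast markers (310 and 297 against 237 and 218), 3 mesoderm markers (336 and 338 against 187 and 183) and 4 blood markers (371 and 296 against 225 and 194) were above in J1 with no overlap, on the deposited scale too. The members of these sums were mostly dim, between the 7.99 and 71.0 percentiles of their arrays. The sums include sets too dim to be tested: 3 of the 6 trophoblast and 2 of the 4 blood markers were tested. After normalization 4 of the 6 trophoblast markers were below in F1 and 2 above. Of the 7 endoderm markers 5 were below, 1 was above and 1 overlapped. The sum over 3 neural markers was above in J1 after normalization (1133 and 1258 against 860 and 798) and below in deposited signal (880 and 975 against 1074 and 1010). In bulk RNA, fewer cells of a type and less RNA per cell cannot be told apart.

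The plainest difference was on the Y chromosome. Eif2s3y, which encodes the Y-linked gamma subunit of translation initiation factor eIF2 and is transcribed in most male cells, read 1195 and 1185 in J1 and 22.1 and 23.5 in F1 (log2 difference -4.89, SE 0.09, adjusted p = 8.86e-09). Uty, a Y-linked relative of the histone demethylase Utx, read 205 and 226 against 9.24 and 5.62 (log2 difference -3.20), and its other tested probe set differed by -1.68. Uba1y, the Y-linked ubiquitin-activating enzyme, read 131 and 138 against 31.0 and 33.2. In each of these the J1 arrays lay far above the F1 arrays. Usp9y, a Y-linked deubiquitinase, went the other way, with 47.4 and 42.6 against 76.1 and 92.1 (log2 difference 0.69), and so did Sry, the testis-determining gene, with 136 and 106 against 299 and 321 (log2 difference 1.25). The only tested set of Sry has the suffix _x_at, a class that shares probes with other transcripts. Kdm5d and Zfy2 were too dim to be tested, Ddx3y had no named probe set and the set for Zfy1 names several genes. 4 of the 5 tested Y genes passed the filter on low values through 1 line only. The labels do not give the sex of either line.

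Xist, the RNA that coats the inactive X chromosome of female cells, was dim in both lines, with 96.1 and 114 in J1 and 98.3 and 106 in F1 (log2 difference -0.04, no call). Among the X-linked partners of Y genes, Eif2s3x was higher in F1 by 0.77 on the log2 scale, Kdm5c by 0.62 and Usp9x by 1.13. Kdm5c had 6 of its 7 other tested sets called higher and 1 called lower. Usp9x read 329 and 415 in J1 and 810 and 855 in F1, and all 6 of its tested probe sets were higher. Of the 11 tested genes of this group 4 were higher and 2 lower (8 and 1 on the deposited scale). Of 16 tested X-linked pluripotency and signalling genes 7 were higher and 2 lower (13 and 0), led by Rhox5, an early homeobox gene (562 and 482 against 1461 and 1531, log2 difference 1.49), and the ubiquitin ligase gene Huwe1 (486 and 593 against 1426 and 1573, log2 difference 1.45). Klhl13, a ubiquitin ligase adaptor, was higher by 0.67, and Jpx, a noncoding RNA gene beside Xist, was lower by -0.42, a call lost without either F1 array. The X chromosome as a whole did not stand apart from the autosomes, as its values below show.

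**Figure D1:**
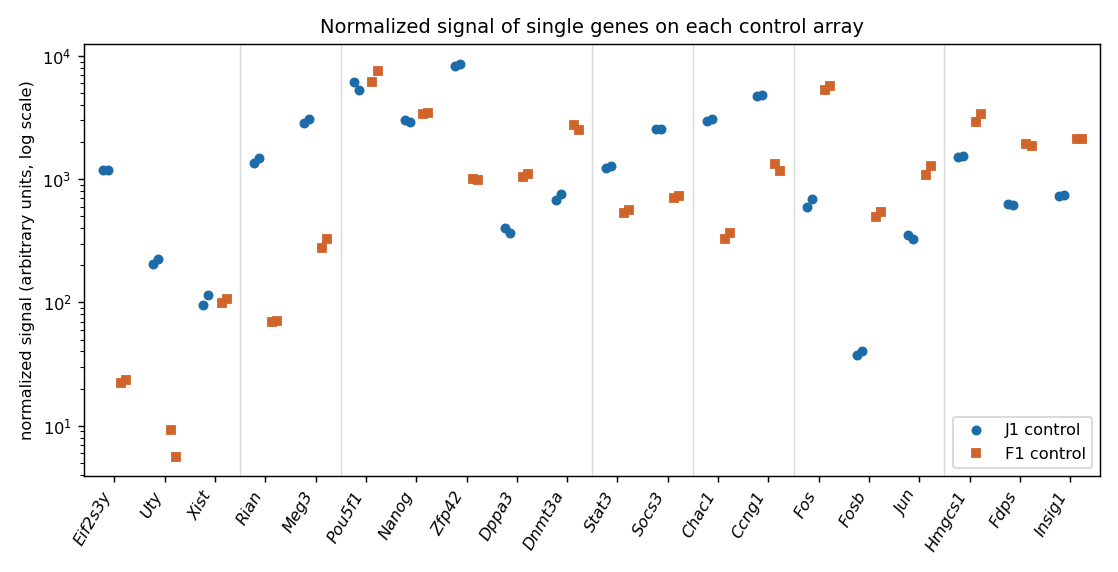
Normalized signal (arbitrary units, log axis) of named genes on each of the 4 arrays, J1 control and F1 control, with 1 point per array. Eif2s3y, Uty, Rian, Meg3 and Zfp42 lie lower on both F1 arrays and Fosb, Fos and Dnmt3a lie higher, whereas Pou5f1, Xist and Nanog differ little. In deposited signal Pou5f1 and Nanog were above in F1.

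Imprinted genes, which are transcribed mainly from the copy of 1 parent, held some of the strongest differences of the comparison. The Dlk1-Dio3 cluster of chromosome 12 produces the maternally expressed long noncoding RNAs Meg3 (also called Gtl2), Rian and Mirg and the paternally expressed Dlk1. Rian read 1341 and 1480 in J1 and 69.9 and 70.9 in F1 (log2 difference -4.01, SE 0.09, adjusted p = 2e-08), and all 4 of its tested probe sets were lower. Meg3 read 2870 and 3095 against 278 and 330 (log2 difference -3.22, SE 0.09, adjusted p = 5.07e-08), with 9 of 10 tested probe sets lower and the tenth at -0.18 without a call. Mirg read 215 and 188 against 98.5 and 56.8 (log2 difference -1.23). The 3 maternal RNAs of the cluster were thus low on both F1 arrays, without overlap, while Dlk1, the paternally expressed Notch-family ligand gene beside them, differed by 0.20 with no call.

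Other imprinted genes lower in F1 were Nnat, encoding the proteolipid neuronatin (330 and 329 against 33.0 and 30.6, log2 difference -2.80), Mest, an alpha/beta hydrolase gene (-1.99), Sgce, a sarcoglycan gene (-1.45), Cdkn1c, encoding the cyclin-dependent kinase inhibitor p57 (-1.42), and Ndn, encoding necdin (-0.81, 6 of 6 probe sets, with no call at the brightest on the deposited scale). Impact differed by -1.99 at its brightest probe set, but its 2 other tested sets were higher, at 1.30 and 0.38. Grb10, an adaptor that restrains growth factor receptors, was higher in F1 (613 and 676 against 2417 and 2376, log2 difference 1.87), and so was Kcnq1ot1, the noncoding RNA that silences the Kcnq1 cluster (log2 difference 1.41). Of 40 listed genes 33 were tested, 8 were higher and 17 lower (14 and 11 on the deposited scale), and their median relative to all genes was -0.12. That median was -0.23 without replicate 2 of J1, and members were called in both directions. The filter on low values was passed through 1 line only by 3 of the 33.

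Among pluripotency genes the core factors were close after normalization and several naive-state genes were not. Pou5f1 read 6122 and 5263 in J1 and 6115 and 7516 in F1 (log2 difference 0.26, adjusted p = 0.0422), so its arrays overlap although the test passed, and the call was lost without replicate 2 of J1 (adjusted p = 0.237) and without replicate 2 of F1 (adjusted p = 0.202). Nanog read 3014 and 2888 against 3354 and 3430 (log2 difference 0.20) and Sox2 7724 and 7917 against 6028 and 6115 (log2 difference -0.36). In deposited signal Sox2 was level between the lines, at 6931 and 7084 against 6907 and 6960, with no call. Nanog was above in F1 there, at 2410 and 2310 against 4144 and 4219. So was Pou5f1, at 5383 and 4505 against 7017 and 8482 in deposited signal. Klf4 differed by 0.08 with no call (0.69 with a call on the deposited scale), and Esrrb, an orphan nuclear receptor of the naive network, was higher by 0.35, with another of its sets called lower. Zfp42, also called Rex1, a zinc finger gene used as a marker of the naive state, read 8207 and 8656 in J1 and 1001 and 992 in F1 (log2 difference -3.06, SE 0.05, adjusted p = 4.53e-09). It has 1 named probe set on the array, and F1 lay at 1001 or below on both arrays. The Krüppel-like factor genes Klf5 (-0.89) and Klf2 (-0.53) and the nuclear receptor gene Nr5a2 (-0.66) were also lower, although the other probe set of Klf5 was called the opposite way, and on the deposited scale Nr5a2 turned and Klf2 had no call.

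Other genes of the same state were higher in F1. Dppa3, also called Stella, which protects maternal methylation marks, read 403 and 364 in J1 and 1033 and 1098 in F1 (log2 difference 1.43). Utf1, a chromatin-bound factor of undifferentiated cells, read 1001 and 891 against 2988 and 2752 (log2 difference 1.58). Tfcp2l1, a naive-state transcription factor downstream of LIF, read 732 and 785 against 1592 and 1883 (log2 difference 1.17), and Tbx3, a T-box factor of the same network, 748 and 717 against 1456 and 1624 (log2 difference 1.05). Lin28a, an RNA-binding repressor of let-7 maturation, was higher by 1.11 at its brightest probe set and lower at its other. All 32 listed genes were tested, 14 higher and 10 lower (26 and 3 on the deposited scale), with a median relative to all genes of 0.13, which was 0.21 without replicate 2 of J1 and 0.08 without replicate 1 of F1. Of the 4 genes whose probe sets all agreed, all 4 were higher, where 50.9% of all 1483 such genes were.

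Genes of the LIF pathway moved in both directions. Lifr, the LIF receptor, read 2122 and 2422 in J1 and 394 and 357 in F1 at its brightest probe set (log2 difference -2.54), but its 2 other tested sets differed by 0.10 and -0.29 without a call. Stat3, the transcription factor the receptor activates, read 1222 and 1271 against 535 and 562 (log2 difference -1.16), with 3 of its 4 probe sets lower and the fourth higher. Socs3, the feedback inhibitor that STAT3 induces, read 2548 and 2537 against 700 and 727 (log2 difference -1.81, SE 0.06, adjusted p = 1.41e-07), lower at all 3 of its probe sets. Pim1, a kinase gene that STAT3 also induces, was by contrast higher, with 1078 and 1046 against 2503 and 2521 (log2 difference 1.23). Jak1, the kinase bound to the receptor, was higher by 0.69, and Il6st, the shared receptor subunit gp130, lower by -0.65 with other probe sets called both ways and a direction that turned on the deposited scale. Of 19 tested genes 5 were higher and 8 lower (10 and 4), and the median relative to all genes was 0.06, or -0.02 on the deposited scale and -0.04 without replicate 2 of F1. Stat3 and Socs3 lie on chromosome 11 and Zfp42 and Klf2 on chromosome 8, which shifted as a whole, as described below.

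Primed-epiblast and FGF genes showed no common direction. Zic2, a zinc finger factor of the primed state and the neural plate, read 1405 and 1385 in J1 and 218 and 221 in F1 (log2 difference -2.57), and Otx2, a head and epiblast homeobox factor, 633 and 640 against 225 and 251 (log2 difference -1.36). Cdh2, N-cadherin, was lower by -1.26 on the log2 scale. Lef1, a nuclear effector of Wnt, was higher (86.3 and 87.2 against 475 and 446, log2 difference 2.19), as was Lefty1, a Nodal antagonist (2066 and 2430 against 6363 and 6383, log2 difference 1.50). Of 18 tested genes of the primed list 6 were higher and 7 lower (13 and 4 on the deposited scale). Their median relative to all genes was 0.07, but it lay on either side of 0 when 1 array was left out, at -0.04 without replicate 1 of F1, -0.01 without replicate 2 of J1 and 0.16 without replicate 2 of F1. Among the feedback genes of FGF and ERK, Spred1, an inhibitor of Ras activation, was higher at all 7 of its probe sets (362 and 400 against 1101 and 1016, log2 difference 1.43), and the ETS factor gene Etv4 by 0.91. The receptor gene Fgfr1 (-1.24) and the inhibitor gene Spry2 (-0.89, no call on the deposited scale) were lower. That list had 11 higher and 7 lower of 20 (15 and 3), with a median relative to all genes of 0.36.

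In the DNA methylation machinery, the de novo methyltransferase gene Dnmt3a stood out. It read 679 and 761 in J1 and 2747 and 2504 in F1 (log2 difference 1.84, SE 0.08, adjusted p = 3.95e-07), and all 5 of its probe sets were higher. Dnmt3b, the other de novo enzyme, was higher by 0.43 and its partner Dnmt3l by 0.44. The maintenance enzyme Dnmt1 was lower by -0.17 here but higher by 0.60, with a call, on the deposited scale. The dioxygenase genes Tet1 (0.63) and Tet2 (0.68), which oxidise methylcytosine, were higher, as were Mbd3, a subunit of the NuRD complex (1.05), and Uhrf2 (0.91). Of 19 tested genes 9 were higher and 4 lower (17 and 0). Their median relative to all genes was 0.07, but 0.31 without replicate 1 of J1, 0.15 without replicate 2 of F1, 0.35 on the deposited scale and 0.34 when a gene's probe sets were averaged. Of the 33 tested genes of heterochromatin and repeat silencing 13 were higher and 10 lower (28 and 1 on the deposited scale). The histone H3 lysine 9 methyltransferase genes Ehmt2, also called G9a (199 and 209 against 708 and 706, log2 difference 1.71, with a dimmer second set at -0.03 without a call), and Setdb1 (239 and 281 against 718 and 708, log2 difference 1.40) were higher, while Cbx1, encoding heterochromatin protein HP1 beta, was lower (6561 and 6441 against 3532 and 3319, log2 difference -0.92). Rnf2, a Polycomb ubiquitin ligase, was lower by -0.73 at its brightest set, and Atrx, a chromatin remodeller of repeats and telomeres, was higher by 0.98; each had 1 other set called the opposite way. In deposited signal Rnf2 was level between the lines, at 2519 and 2684 in J1 and 2528 and 2526 in F1, with no call.

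Rif1 itself gave different answers at its 4 tested probe sets. The brightest read 3243 and 3951 in J1 and 3418 and 3464 in F1 (log2 difference -0.06, no call), and the next 1619 and 2025 against 1870 and 1986 (0.09, no call). A further set was higher, with 537 and 718 against 956 and 1037 (log2 difference 0.67). The remaining set was lower, with 1334 and 1428 against 98.7 and 57.4 (log2 difference -3.90). Rif1 level thus showed no agreed difference between the control lines, although the cell line label of the F1 controls names the knockdown cells.

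The clearest group was cholesterol synthesis and uptake. The pathway runs from acetyl-CoA through mevalonate and squalene to lanosterol and cholesterol, and the transcription factor SREBP2 (gene Srebf2) activates its genes through sterol-response elements, usually beside CCAAT boxes bound by NF-Y, when sterols are low; INSIG proteins hold SREBP back when sterols are plentiful. Of the 20 genes of this group that were tested, 18 were higher in F1 and none lower (20 and 0 on the deposited scale), and the median relative to all genes was 0.70, or 0.93 on the deposited scale. A share of 28.2% of all genes was higher.

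Promoter windows of genes of this pathway, from 250 bases before to 50 bases after the annotated start, are printed because the members were higher together and share letters that the list did not use. They come from RefSeq on assembly GRCm38.p6, 5′ to 3′ on the gene's strand, and capitals mark matches on either strand to TCACNCCAC (a sterol-response element core) or to CCAAT (read as ATTGG on the other strand).
Hmgcs1 (chr13:119690101-119690400, plus strand): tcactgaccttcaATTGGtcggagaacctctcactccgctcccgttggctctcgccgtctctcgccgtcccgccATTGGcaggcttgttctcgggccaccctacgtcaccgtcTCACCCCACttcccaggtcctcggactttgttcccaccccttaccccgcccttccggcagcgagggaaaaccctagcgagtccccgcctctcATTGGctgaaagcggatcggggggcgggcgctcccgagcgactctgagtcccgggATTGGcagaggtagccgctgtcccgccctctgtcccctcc
Insig1 (chr5:28071162-28071461, plus strand): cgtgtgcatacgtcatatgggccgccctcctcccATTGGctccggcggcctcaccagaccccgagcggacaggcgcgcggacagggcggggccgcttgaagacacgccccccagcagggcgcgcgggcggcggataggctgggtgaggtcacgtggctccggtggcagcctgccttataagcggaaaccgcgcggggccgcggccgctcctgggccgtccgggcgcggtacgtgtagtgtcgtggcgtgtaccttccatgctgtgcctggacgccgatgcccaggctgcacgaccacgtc
Cyp51 (chr5:4104648-4104947, minus strand): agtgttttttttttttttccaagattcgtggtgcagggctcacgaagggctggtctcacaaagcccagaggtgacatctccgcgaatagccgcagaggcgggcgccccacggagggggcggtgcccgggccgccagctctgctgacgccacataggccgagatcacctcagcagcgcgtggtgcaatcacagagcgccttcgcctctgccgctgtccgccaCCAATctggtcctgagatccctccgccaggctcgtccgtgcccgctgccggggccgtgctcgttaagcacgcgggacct
Msmo1 (chr8:64733529-64733828, minus strand): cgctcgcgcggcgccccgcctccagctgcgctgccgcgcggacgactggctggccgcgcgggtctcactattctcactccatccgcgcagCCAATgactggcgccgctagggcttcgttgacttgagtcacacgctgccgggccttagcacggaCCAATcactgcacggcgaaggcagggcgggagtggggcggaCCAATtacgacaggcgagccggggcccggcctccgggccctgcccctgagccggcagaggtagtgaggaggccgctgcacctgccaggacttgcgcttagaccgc
The CCAAT letters were in a window of all 16 tested members that had one, against 41.1% of 27025 genes of the table, which were not limited to tested genes. The 16 include Mvk, which had no call and whose window holds 5 matches. The sterol-response letters were in 1 of the 16, Hmgcs1, against 1.44% of genes. A match is a description of the letters and not a site shown to be bound.

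In pathway order, Hmgcs1, the synthase that makes HMG-CoA and whose window above holds both motifs, read 1506 and 1528 in J1 and 2908 and 3388 in F1 (log2 difference 1.04, SE 0.07, adjusted p = 4.6e-06), with all 5 of its probe sets higher. Mvk, mevalonate kinase, read 193 and 191 against 204 and 210 (log2 difference 0.10, no call). Idi1, isopentenyl diphosphate isomerase, was higher by 1.08. Fdps, which makes farnesyl diphosphate, read 629 and 614 against 1926 and 1847 (log2 difference 1.57, SE 0.06, adjusted p = 3.5e-07). Squalene epoxidase (Sqle) read 530 and 592 against 1133 and 1136, and lanosterol synthase (Lss) was higher by 0.59. Cyp51, the lanosterol demethylase, read 251 and 257 against 651 and 673 (log2 difference 1.32), and Msmo1, the next oxidase, 440 and 485 against 982 and 967 (log2 difference 1.05). Sc5d, a late desaturase, was higher by 1.56 and Dhcr7, the last reductase, by 0.38. Differences were thus present from the start to the end of the pathway, with no overlap between lines in any of the enzymes called here.

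The regulators of the pathway were higher too. Insig1 read 725 and 742 in J1 and 2100 and 2128 in F1 (log2 difference 1.50, SE 0.06, adjusted p = 3.25e-07), and Srebf2 185 and 215 against 626 and 631 (log2 difference 1.57). Stard4, a sterol carrier, read 277 and 323 against 304 and 300 (log2 difference 0.01, no call). The genes with several tested probe sets that all agreed numbered 7, and all 7 were higher. The count of higher members stayed at 17 or 18 when any 1 array was left out.

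Immediate early genes, which are transcribed within minutes of growth factor, stress or transfection signals, were higher in F1 by up to 3.24 on the log2 scale. Fosb, a subunit of the transcription factor AP-1, read 37.3 and 40.5 in J1 and 496 and 542 in F1 (log2 difference 3.24, SE 0.10, adjusted p = 1.26e-07). Fos, its relative, read 598 and 693 against 5258 and 5741 (log2 difference 3.06, SE 0.08, adjusted p = 4.11e-08), and Jun, their partner, 354 and 327 against 1090 and 1275 (log2 difference 1.74). The F1 arrays lay above the J1 arrays in all of these. Egr2 (1.19) and Egr1 (0.62), zinc finger factors induced by serum, Zfp36, which destabilises AU-rich messengers (1.28), Ier2 (0.90) and the phosphatase gene Dusp1 (0.76) were higher as well. Icam1, an adhesion molecule (845 and 790 against 357 and 370, log2 difference -1.13), the heme oxygenase gene Hmox1 (-0.79), the orphan receptor gene Nr4a1 (-0.64), Junb (-0.47) and Atf3 (-0.26) were lower, the last 3 of which turned on the deposited scale, where Hmox1 had no call. Of 20 tested genes 11 were higher and 5 lower (15 and 1 on the deposited scale), with a median relative to all genes of 0.64. The filter on low values was passed through 1 line only by 2 of the 20, Fosb among them. The labels give lipofectamine delivery of the shRNA for J1 and do not settle its delivery for F1. The part of delivery in these differences was not tested.

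The windows of 3 members of this group are printed because they hold a response motif in capitals: for Egr2 and Zfp36 the CArG box, the core bound by serum response factor, and for Dusp1 the cyclic AMP response element TGACGTCA, searched on both strands.
Egr2 (chr10:67537619-67537918, plus strand): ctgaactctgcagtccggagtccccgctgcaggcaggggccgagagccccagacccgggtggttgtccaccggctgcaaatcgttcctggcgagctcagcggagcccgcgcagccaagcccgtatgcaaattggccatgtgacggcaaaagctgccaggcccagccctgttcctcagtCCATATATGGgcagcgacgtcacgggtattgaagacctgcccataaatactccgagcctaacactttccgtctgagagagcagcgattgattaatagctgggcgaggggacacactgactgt
Zfp36 (chr7:28379179-28379478, minus strand): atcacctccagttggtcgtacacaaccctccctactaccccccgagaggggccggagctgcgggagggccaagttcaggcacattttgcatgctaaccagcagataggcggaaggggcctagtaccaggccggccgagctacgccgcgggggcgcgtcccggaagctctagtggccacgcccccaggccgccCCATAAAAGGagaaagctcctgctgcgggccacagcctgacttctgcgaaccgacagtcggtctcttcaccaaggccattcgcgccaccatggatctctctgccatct
Dusp1 (chr17:26508423-26508722, minus strand): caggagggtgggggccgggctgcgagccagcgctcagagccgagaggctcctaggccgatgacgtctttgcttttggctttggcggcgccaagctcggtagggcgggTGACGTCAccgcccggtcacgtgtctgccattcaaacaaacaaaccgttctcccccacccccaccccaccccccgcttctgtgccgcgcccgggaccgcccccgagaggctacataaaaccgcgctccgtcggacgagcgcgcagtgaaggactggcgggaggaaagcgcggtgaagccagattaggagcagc
The CArG box was in a window of 2 of the 15 tested members that had one, against 1.81% of genes, and TGACGTCA in 2 of the 15, Dusp1 and Btg2, against 2.03%. The windows of Fos and Fosb held neither set of letters, which says nothing of elements farther upstream. Btg2, an antiproliferative gene, differed by -0.06 with no call.

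**Figure D2:**
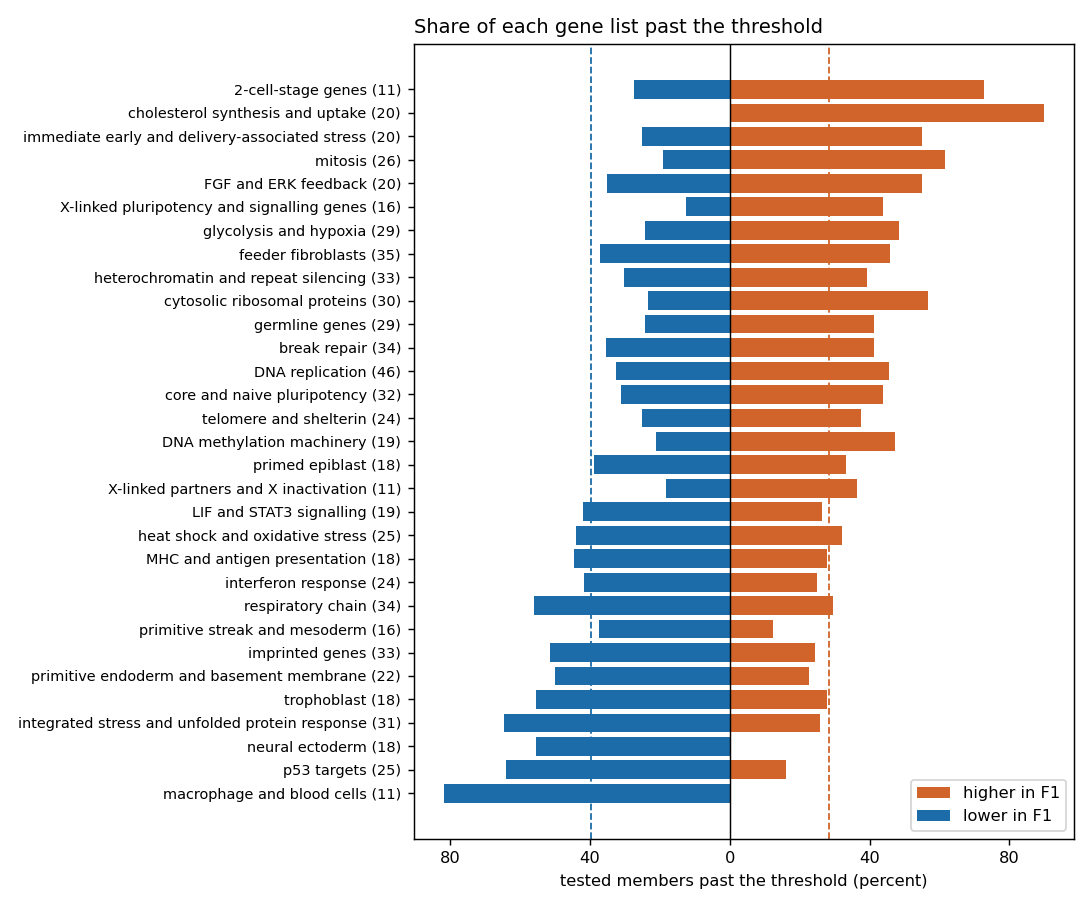
Share of tested members called higher and called lower in F1 in each gene group, at the brightest probe set of each gene, with dashed lines at the share of all 14147 genes. Cholesterol genes stand at 18 higher and 0 lower of 20; p53 targets, at 4 and 16 of 25 here, were 12 and 8 on the deposited scale, and the unfolded protein group, at 8 and 20 of 31 here, was 16 and 9. The excess of lower calls also turned to an excess of higher calls there in the LIF, primed epiblast, primitive endoderm, trophoblast, imprinted, antigen presentation, interferon, heat shock and respiratory groups. Over all probe sets the calls on the deposited scale were 16233 higher and 5949 lower.

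Targets of p53, the stress-activated tumour suppressor, were lower in F1 in 16 of 25 tested genes and higher in 4, against 39.8% and 28.2% of all genes, but on the deposited scale the counts turned to 12 higher and 8 lower. The median relative to all genes was -0.41 on the normalized and -0.24 on the deposited scale. Ccng1, cyclin G, read 4766 and 4781 in J1 and 1329 and 1165 in F1 (log2 difference -1.92, SE 0.07, adjusted p = 2.01e-07), lower at all 3 of its probe sets. Perp, a desmosomal and apoptosis effector, read 831 and 743 against 179 and 155 (log2 difference -2.12). Sesn2, a sestrin that restrains mTORC1, differed by -1.36, Bbc3, the apoptosis effector PUMA, by -1.34, and Cdkn1a, the kinase inhibitor p21, by -0.74, the last of which turned on the deposited scale. Pmaip1, the related effector NOXA, went the other way, with 252 and 292 against 1331 and 1234 (log2 difference 2.17). Mdm2, the ubiquitin ligase of p53, differed by 0.15 with no call, and p53 itself (Trp53) had no named probe set. Without the genes of chromosomes 8 and 11 the median relative to all genes was -0.44.

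Several genes induced by ATF4 in the integrated stress response were lower. Chac1, a glutathione-degrading enzyme, read 2972 and 3086 in J1 and 330 and 363 in F1 (log2 difference -3.06, SE 0.07, adjusted p = 2.45e-08). Trib3, a pseudokinase, read 2155 and 2418 against 711 and 612 (log2 difference -1.76), Nupr1 3728 and 3770 against 1159 and 1319 (log2 difference -1.59), and Ddit4, an inhibitor of mTORC1 that hypoxia also induces, 3662 and 3712 against 917 and 1078 (log2 difference -1.87). The arrays of the lines did not overlap in these. Herpud1, which serves endoplasmic reticulum-associated degradation, was lower by -1.51 and Ddit3, the factor CHOP, by -1.13, though the other probe set of Ddit3 was called higher. The chaperone gene Hspa5, BiP, was higher at its brightest set (3315 and 3546 against 6545 and 6886, log2 difference 0.97) and had other sets called both ways. Of 31 tested genes of this group 8 were higher and 20 lower (16 and 9), and the median relative to all genes was -0.27 on the normalized scale and 0.02 on the deposited scale, so the direction of the group as a whole depends on the scale. Of 25 heat shock and oxidative stress genes 8 were higher and 11 lower (13 and 5), among them Gstm2, a glutathione transferase gene (586 and 532 against 119 and 121, log2 difference -2.06). Mt2, a metallothionein gene on chromosome 8, was lower by -0.58 and Dnajb1, an HSP40 gene on the same chromosome, by -1.07, with its other set called higher. Hspd1, the mitochondrial chaperonin, was higher by 0.78.

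In metabolism, glycolysis and hypoxia genes had 14 higher and 7 lower of 29 (23 and 2 on the deposited scale), with a median relative to all genes of 0.27, or 0.42 without replicate 2 of J1. Pkm, pyruvate kinase, read 3485 and 3614 in J1 and 7092 and 7245 in F1 (log2 difference 1.01), Tpi1, triose phosphate isomerase, 1718 and 1685 against 3680 and 3876 (log2 difference 1.14), and Hk2, hexokinase, 971 and 1160 against 2317 and 2440 (log2 difference 1.15). Egln3, a prolyl hydroxylase that hypoxia induces, was higher by 1.72, while Hif1a, the hypoxia factor itself, was lower, at 2203 and 2359 against 1290 and 998, with no call on the deposited scale. Respiratory chain genes had 10 higher and 19 lower of 34 (21 and 7), with a median relative to all genes of -0.09, or 0.01 on the deposited scale. Nnt, the mitochondrial transhydrogenase, which carries a deletion in some C57BL/6 stocks, read 970 and 1006 against 274 and 233 (log2 difference -1.89, SE 0.09, adjusted p = 8.01e-07), lower at all 3 of its probe sets; whether such a deletion is present here was not tested. Atp5h, an ATP synthase subunit gene on chromosome 11, was lower by -1.06, whereas Sdhd of complex II (1.31) and Atp5a1, the ATP synthase alpha subunit (1.09), were higher at their brightest sets and called lower at others. Cytosolic ribosomal protein genes had 17 higher and 7 lower of 30 (18 and 9), or 10 and 3 without the intensity trend in the variance model, with a median relative to all genes of 0.22 that turned to -0.20 on the deposited scale. Rpl12 alone differed by 3.11, with 161 and 201 against 1733 and 1641, and Rpl37 was higher by 1.22, Rplp0 by 0.51 and Rpl4 by 0.37.

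Mitosis genes were called higher more often than lower, and replication and break repair genes were called in both directions. Of 26 tested mitosis genes 16 were higher and 5 lower (24 and 1 on the deposited scale), with a median relative to all genes of 0.43. Cenpa, the centromeric histone, read 1477 and 1402 in J1 and 3301 and 3381 in F1 (log2 difference 1.20), and Aurkb, an Aurora kinase, 267 and 305 against 686 and 671 (log2 difference 1.20). The mitotic kinesin gene Kif20a (0.98) and Ube2c, a ubiquitin-conjugating enzyme of the anaphase-promoting complex (0.77), were higher as well. Anln, the contractile-ring protein anillin, was lower (2453 and 2560 against 776 and 799, log2 difference -1.65). Of 46 tested DNA replication genes 21 were higher and 15 lower (40 and 3), with a median relative to all genes of 0.18; Ticrr, which is needed for origin firing, read 367 and 408 against 1131 and 1276 (log2 difference 1.59), Orc1 and Orc2 of the origin recognition complex were higher by 1.03 and 0.97, Rpa2, a single-strand binding subunit, by 0.88, and Gins3 of the replicative helicase was lower by -1.10. Rrm2, a ribonucleotide reductase subunit, was lower by -0.65 at its brightest set, with another set called higher. Break repair genes had 14 higher and 12 lower of 34 (26 and 3), with Bard1, the partner of BRCA1, higher by 1.21 on the log2 scale. Mdc1, a scaffold at breaks, was lower by -0.86, with no call on the deposited scale, and the recombination gene Rad51c, on chromosome 11, by -0.97, with the other set of Rad51c called higher. The checkpoint kinase gene Chek1 was lower by -0.71, a direction that turned on the deposited scale. Of 24 telomere genes 9 were higher and 6 lower (19 and 1). Acd, the shelterin protein TPP1, read 1226 and 1118 against 305 and 290 (log2 difference -1.91), and it lies on chromosome 8. Ctc1 of the CST complex, on chromosome 11, was lower by -0.87, with no call on the deposited scale, and the shelterin gene Terf2, on chromosome 8, by -0.75, though the direction of Terf2 turned on the deposited scale and its 2 other sets had no call.

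Genes of the 2-cell embryo, which a small share of stem cells transcribes in bursts, were dim but mostly higher. Of 23 listed genes 8 had no probe set of their own and 4 were too dim, so 11 were tested, 4 of which passed the filter through 1 line only; 8 were higher and 3 lower (8 and 2), with 1 lower without replicate 1 of F1. AF067061 read 58.5 and 58.8 in J1 and 419 and 432 in F1 (log2 difference 2.53), Gm20767 55.5 and 42.3 against 319 and 327 (log2 difference 2.36), and BC080696 12.9 and 16.7 against 129 and 114 (log2 difference 2.09). Tcstv1, a gene of the same clustered families, read 13.2 and 12.7 against 67.1 and 59.4 (log2 difference 1.39). Germline genes had 12 higher and 7 lower of 29 (19 and 3), with Sycp1, a synaptonemal complex protein (34.8 and 39.9 against 172 and 187, log2 difference 1.83), Dazl, a germ-cell RNA-binding protein (51.0 and 60.4 against 178 and 201, log2 difference 1.49), and Mael, which serves the piRNA pathway (171 and 205 against 558 and 518, log2 difference 1.44), higher on both F1 arrays. The filter was passed through 1 line only by 4 of the 29 germline genes, Sycp1 among them.

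Genes of differentiated lineages were more often lower than higher in F1, but so were all genes, at 39.8% and 28.2%. The share lower was 55.6% in the neural and trophoblast groups, 50% in primitive endoderm and 81.8% in blood. In the primitive streak group it was 37.5%, near that of all genes. The filter on low values was passed through 1 line only by 2 neural, 1 endoderm, 3 trophoblast and 3 streak genes. On the deposited scale the call counts of the trophoblast and primitive endoderm groups turned, and those of the neural group were even. The medians of these groups relative to all genes kept their sign there, at -0.18, -0.37 and -0.44 in that order. Of 18 tested neural ectoderm genes none was higher and 10 were lower (7 and 7 on the deposited scale), with a median relative to all genes of -0.31; Sox21, a neural progenitor factor, read 719 and 671 in J1 and 229 and 186 in F1 (log2 difference -1.67), and the eye-field gene Rax (-1.47) and the Notch-related gene Hes3 (-1.12) were lower. Sox1, a neural plate factor on chromosome 8, differed by -0.25 with no call. Sox11 was lower at its brightest set (-1.33) but 4 of its 5 other sets were higher. Of 22 primitive endoderm and basement membrane genes 5 were higher and 11 lower (8 and 7), and the lower count was 7 without either F1 array. The collagen IV genes Col4a1 (846 and 872 against 250 and 241, log2 difference -1.74) and Col4a2 (631 and 668 against 209 and 204, log2 difference -1.57) and the matrix protein gene Sparc (3849 and 3629 against 1360 and 1396, log2 difference -1.43) were lower, and lie on chromosomes 8 and 11. The median of this list relative to all genes was -0.16, or -0.11 without replicate 2 of F1, and -0.01 without the genes of those chromosomes. Fst, follistatin, on chromosome 13, was lower too (341 and 362 against 73.2 and 64.6, log2 difference -2.09). The endoderm factor genes Gata4 and Gata6 were dim and each lower by -0.30, calls that were lost when 1 array was left out, F1 replicate 1 or 2 among them. Trophoblast genes had 5 higher and 10 lower of 18 (7 and 3), with 2 higher without replicate 2 of F1. Lgals3, galectin 3, read 903 and 879 against 312 and 315 (log2 difference -1.46), Tfap2c, a trophoblast and germ-cell factor, was lower by -0.78 and Cdx2, the trophectoderm homeobox gene, by -0.57, while Plac8 was higher by 0.72. In deposited signal Tfap2c was level between the lines, at 1335 and 1187 in J1 and 1334 and 1175 in F1, with no call. The keratin gene Krt18 was lower by -0.56, a direction that turned on the deposited scale. Primitive streak and mesoderm genes had 2 higher and 6 lower of 16 (2 and 6), with Mesp1 at 148 and 146 against 59.8 and 52.0, the streak factor gene Mixl1 lower by -0.69, the Wnt target Sp5 lower by -0.58 and the homeobox gene Lhx1 higher by 0.68. Of 11 tested macrophage and blood genes none was higher and 9 were lower (1 and 9). 4 of the 11 passed the filter on low values through 1 line only, and with the filter at the 60th percentile 4 were tested and 3 lower. The lower genes included Cd68 (279 and 237 against 83.2 and 80.4, log2 difference -1.46), Laptm5 (-1.29, with 1 of its 4 other sets called higher), the endothelial cadherin gene Cdh5 (-1.04) and Tyrobp (-0.68).

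Fibroblast genes did not move one way. Of 39 listed genes 35 were tested, 16 were higher and 13 lower (23 and 5 on the deposited scale), and 6 passed the filter through 1 line only. Bgn, the matrix proteoglycan biglycan, read 61.8 and 58.7 in J1 and 808 and 788 in F1 (log2 difference 3.38, SE 0.09, adjusted p = 4.67e-08), higher at all 3 of its probe sets. Fbln2, fibulin 2, read 37.1 and 48.4 against 284 and 283 (log2 difference 2.32), Postn, periostin, 24.0 and 27.5 against 114 and 117 (log2 difference 1.61), and Col3a1, the collagen III chain, 35.6 and 31.9 against 94.0 and 112 (log2 difference 1.22). S100a4, a calcium-binding protein of fibroblasts, was higher by 1.77 and Col1a2, a collagen I chain, by 0.90. Lgals1, galectin 1, was lower (5304 and 4656 against 2472 and 2315, log2 difference -1.05), and so were Col5a2 (-0.98) and Col1a1 (-0.37), the call of Col1a1 being lost without J1 replicate 1 or either F1 array and on the deposited scale. The part of feeder cells in these differences was not tested. Antigen presentation genes had 5 higher and 8 lower of 18 (8 and 4), with 2 higher when either F1 array was left out, and B2m, the light chain of MHC class I, was lower (1401 and 1142 against 666 and 648, log2 difference -0.93), with no call on the deposited scale. The immunoproteasome gene Psmb8 differed by -2.68 at its brightest set and was called higher at its other. Psmb10, of the same complex, and the chaperone gene Canx were lower by -0.67 and -0.61, directions that turned on the deposited scale. Interferon response genes had 6 higher and 10 lower of 24 (12 and 7), with Oasl2, a relative of the antiviral oligoadenylate synthetases (log2 difference 2.13), and Ifitm3, a membrane restriction factor (954 and 818 against 1888 and 1768, log2 difference 1.03), higher. Bst2, tetherin, was higher by 0.96, and Ifitm1 was lower by -0.61, a direction that turned on the deposited scale. The filter was passed through 1 line only by 5 of the 24 interferon genes, Oasl2 among them. The same holds for 2 of the 18 antigen presentation genes.

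Expression also differed by chromosome. Chromosomes 8 and 11 lay below the rest in F1: relative to the median of all genes, the median was -0.262 over 761 genes of chromosome 8 and -0.246 over 1197 genes of chromosome 11. Over the 4 pairs of an F1 with a J1 array these medians ran from -0.270 to -0.245 and from -0.257 to -0.242. The 17 other autosomes ran from -0.0234 to 0.108 and the X chromosome stood at 0.0440. Put as a ratio of J1 to F1, the shift was 1.20 for chromosome 8 and 1.19 for chromosome 11. Of their genes 444 of 761 and 705 of 1197 were called lower and 117 and 172 higher, whereas 36.8% of the 11716 genes of the other autosomes were lower. An exact two-sided permutation test of 2 arrays against 2 cannot give a p below 0.333, so no test was made of these medians.

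**Figure D3:**
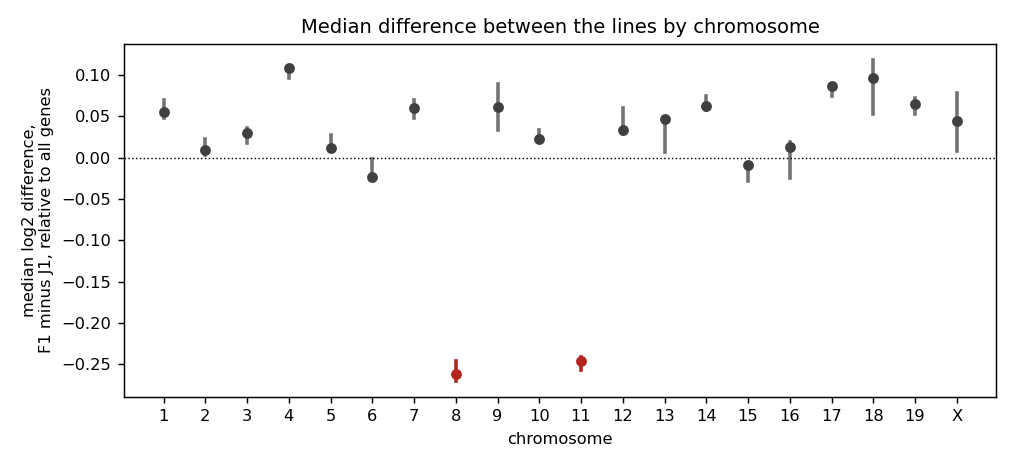
Median log2 difference (F1 minus J1) of the genes of each chromosome relative to the median of all genes, with bars for the range over the 4 pairs of an F1 with a J1 array. Chromosomes 8 (-0.262) and 11 (-0.246) lie below all others, which run from -0.0234 to 0.108.

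The shift ran along the whole of both chromosomes. With the genes of each chromosome cut by position into 10 blocks of nearly equal number, all 10 blocks lay below the median of all genes on chromosome 8 (-0.338 to -0.160) and on chromosome 11 (-0.375 to -0.165). The 180 blocks of the other chromosomes ran from -0.264 to 0.307. Where a gene had several tested probe sets that all agreed, 78 of 98 such genes of chromosome 8 and 118 of 135 of chromosome 11 were lower, against 508 of 1199 on the other autosomes. Gain of chromosome 8 or 11 is known to recur in cultured mouse stem cells; copy number was not measured here, and its part in the shift was not tested. Genes named above lie on chromosome 8 or 11 in both directions: Zfp42, Acd, Socs3 and Ccng1 were lower in F1, and Ier2, Msmo1 and Etv4 were higher. The median of a chromosome does not give the shift of a single gene.

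**Figure D4:**
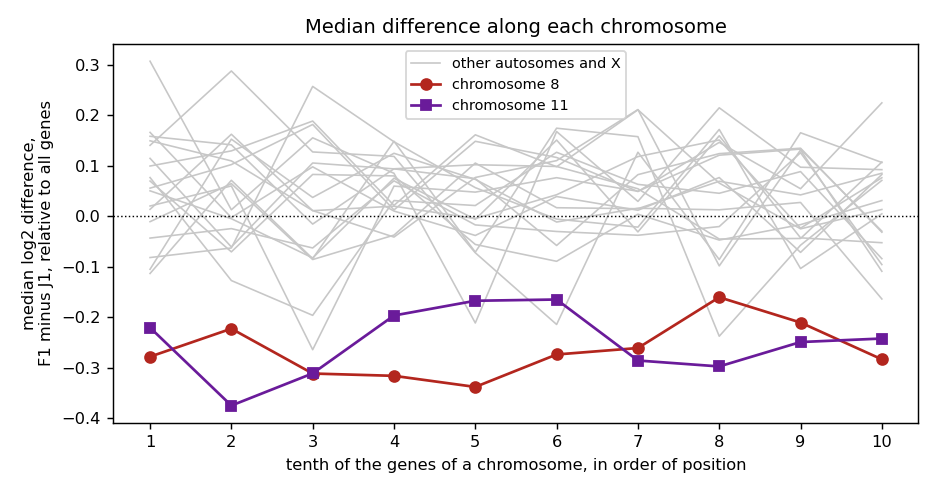
Median log2 difference relative to all genes in 10 successive blocks of genes along chromosomes 8 and 11, with grey lines for the other autosomes and the X chromosome. Every block of chromosomes 8 and 11 lies below 0, between -0.375 and -0.160, while the other 180 blocks run from -0.264 to 0.307.

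Apart from the groups, the largest differences by the naming rule were single genes. Ubl5, a ubiquitin-like splicing protein, read 79.8 and 68.7 in J1 and 2395 and 2491 in F1 (log2 difference 4.74, adjusted p = 8.03e-09), and 2810408B13Rik 8.36 and 6.80 against 723 and 699 (log2 difference 4.83). Apoa2, a high-density lipoprotein constituent, read 49.4 and 44.1 against 724 and 757 (log2 difference 3.55), and Cthrc1, a secreted collagen-related protein, 23.7 and 21.5 against 395 and 332 (log2 difference 3.23). Olig1, a neural lineage factor, read 34.0 and 30.2 against 428 and 449 (log2 difference 3.19), and Car4, a membrane carbonic anhydrase, 38.5 and 44.2 against 502 and 432 (log2 difference 3.03). Spata24, a spermatogenesis-associated gene, differed by 3.96, Nat8f2, an acetyltransferase-like gene, by 3.36, and Gm6958 and 2210409E12Rik, genes without a known role, by 4.30 and 3.65. The sets of 2810408B13Rik, Gm6958 and Spata24 have the suffix _x_at, a class that shares probes with other transcripts. The other tested set of Gm6958 and that of Spata24 were called higher too. Slc1a5, a glutamine transporter, differed by 3.29 at its brightest set and by 0.29 without a call at its other. 2810408B13Rik, Nat8f2, Cthrc1 and Olig1 were among the genes that passed the filter on low values through F1 only.

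On the lower side, Map3k12, a kinase gene, had the largest difference of any gene at its brightest set, 1951 and 1793 in J1 against 11.1 and 4.69 in F1 (log2 difference -6.20, adjusted p = 1.51e-08), but its 3 other tested sets differed by -0.69, 0.33 and 1.96. Tmem151b read 1511 and 1155 against 58.5 and 63.4 (log2 difference -4.08), and Kbtbd11, on chromosome 8, 478 and 494 against 17.4 and 29.3 (log2 difference -3.62), with its dimmer second set at -0.15 without a call. Rnase1, a secreted ribonuclease, read 471 and 305 against 22.5 and 28.0 (log2 difference -3.20), Gng4, a G protein gamma subunit, 391 and 334 against 25.1 and 25.9 (log2 difference -3.13), and Dpys, dihydropyrimidinase, 538 and 519 against 46.8 and 44.4 (log2 difference -3.10). Chrng, a muscle acetylcholine receptor subunit, differed by -3.11, Ggt5, a gamma-glutamyltransferase, by -2.97, and Tbc1d9, a Rab GTPase-activating protein on chromosome 8, by -2.95 at its brightest set and 0.09 without a call at its other. The only tested set of Ggt5 has the suffix _x_at. The rule admitted only genes without overlap between the lines. Map3k12 at its brightest set, Rnase1, Gng4 and Chrng were among those that passed the filter on low values through J1 only.

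How far such differences hold for a gene depends on its probe sets. The lines differ in strain, and whether the probes match the sequence of both lines equally was not tested. Among the 6370 genes with at least 2 tested sets, 1760 (27.6%) had sets called both ways, 755 (11.9%) had all sets higher and 728 (11.4%) all lower, and 104 had sets differing by at least 2-fold in both directions. Differences of at least 8-fold were found at 127 probe sets (0.426%). They made up 57 of 1797 sets with the suffix _x_at, which share probes with other transcripts (3.17%), against 57 of 22576 sets with the plain suffix _at (0.252%). Tubb4b, a beta tubulin, had 1 set at 11.1 and 6.58 in J1 and 10054 and 10334 in F1 (log2 difference 8.58), while its brightest set read 7757 and 7724 against 6283 and 5994 (log2 difference -0.33). Psma6, a proteasome subunit, had 1 set at 12.3 and 12.5 against 3524 and 3401 (log2 difference 6.84) and others at -0.10 and -0.48. Mycn, the N-Myc factor, read 4129 and 4461 against 2315 and 2346 at its brightest set (log2 difference -0.88) and 134 and 109 against 2132 and 1846 at another (log2 difference 3.85). For these genes the sets give no agreed direction.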

How the data were processed

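The authors deposited a table of array intensity values (signal on a linear scale) for 45101 probe sets made with MAS5, per the submitters' processing notes; its version and settings are not given in the sources used here. In these data, the 4 control columns held no missing value and a lowest value of 1, and 64 control probe sets were left out of the tests. Log2(signal + 18) was quantile-normalized over the 4 arrays and fitted with limma 3.58.1 (R 4.3.3; lmFit, and eBayes with an intensity trend) with the line as the only term and no replicate block. The fit had 2 residual degrees of freedom per probe set, and a median of 6.55 prior degrees of freedom were borrowed across probe sets. Of 45037 probe sets, 34945 named 1 gene in the platform annotation, 932 several and 9160 none here, and each gene was taken at its brightest tested set. RefSeq gave the chromosome of 14122 genes.

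The limma fit was tested on simulated normalized values with known changes at a small share of the probe sets. The normalization and the summaries by gene, list, chromosome and motif were not simulated. Genes were named by a rule: all Rif1 probe sets, the Y genes and Xist, the 15 most raised and 15 most lowered genes in F1 with non-overlapping arrays, the 4 members of each list with the smallest p, and defining markers. Other list members, and genes whose probe sets disagree, were picked with their values in view. The lists and members were chosen with earlier results of these data known. Same-numbered replicates were not treated as pairs: with only 2 numbers, their deviations from the group means correlated at 0.118. Alternatives covered the offset, the filter, the normalization, the variance model and each array left out; leaving out _x_at sets, averaging a gene's sets, and leaving out chromosomes 8 and 11 were added after seeing the data. Some genes of the lists are not reported here.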

Additional observations from a re-analysis of the deposited data

How the results depend on the processing

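Counts depended most on the scale. On the values as deposited 16233 probe sets were higher and 5949 lower, with 6049 at least 2-fold higher; with arrays shifted to one median the counts were 15645, 6590 and 5674. With an offset of 72 the 2-fold counts were 1238 higher and 1083 lower. The chromosome 8 and 11 medians kept their direction throughout these alternatives: -0.285 and -0.275 with an offset of 1, -0.197 and -0.184 with 72, -0.279 and -0.261 without the filter, -0.362 and -0.327 with the filter at the 60th percentile, -0.249 for chromosome 8 on the deposited scale and with arrays shifted to one median, and -0.245 and -0.217 when a gene's sets were averaged, where chromosome X was -0.00812. Leaving out 1 array gave -0.281 to -0.248 for chromosome 8, -0.254 to -0.230 for chromosome 11 and 0.00899 to 0.0643 for chromosome X. With 1 array left out, 8514 to 10621 sets were higher and 8277 to 10790 lower; the lone array was assumed to vary like the others.

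On the deposited scale the differences of Krt18 (0.170), Canx (0.0298), Psmb10 (0.103), Ifitm1 (0.0638), Terf2 (0.0228) and Chek1 (0.0696) reversed, and with arrays shifted to one median those of Krt18 (0.134), Psmb10 (0.0670), Ifitm1 (0.0276) and Chek1 (0.0334). With the replicate number as a block, which is a label here and not a known pairing, 10540 were higher and 10883 lower. None of these reversals was itself called. Of the 155 genes named by the rule 152 were called; 15 lost their call on the deposited scale, the 6 reversed ones included, and 14 with arrays shifted to one median, while 1 gained a call under either. With 1 array left out 2 to 5 lost it, among them Pou5f1, Col1a1, Gata4, Gata6 and Jpx. The causes were not tested. Dim probe sets, and differences against arrays near background, are the least certain values.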
